A study of Mus musculus with 6 samples.

Results

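Endothelial identity genes are transcripts by which the cells lining blood and lymph vessels are recognised. The 10 described here, Pecam1, Cdh5, Tek, Tie1, Vwf, Nos3, Eng, Erg, Gpihbp1 and Prox1, were chosen by name, and each matched 1 of the 49315 Ensembl gene rows of the count table by its identifier. The data are RNA sequencing counts from 6 mouse hearts on the C57BL/6 background. The KO group has 3 hearts of mice in which Arrdc4, an alpha-arrestin gene, was knocked out with CRISPR-Cas9, and the WT group has 3 hearts of wild-type mice. No treatment is labelled, and the sources used here do not give age, the deleted part of the gene or how many founders the knockout line has. Arrdc4 itself had 5, 1 and 2 counts in KO replicates 1 to 3, against 349, 307 and 281 counts in WT replicates 1 to 3.

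Endothelial cells line every vessel of the heart, and in heart muscle most of them belong to capillaries. They hold together through VE-cadherin and PECAM-1, take survival signals through the TIE receptors, relax smooth muscle with nitric oxide made by endothelial nitric oxide synthase, and store von Willebrand factor for clotting. ERG, an ETS-family transcription factor, sustains many of these genes. In heart capillaries GPIHBP1 carries lipoprotein lipase to the vessel lumen, where it frees fatty acids from circulating triglyceride. PROX1 is the master factor of lymphatic endothelium, and in mouse embryos it is also made by heart muscle cells. The single comparison of the design asks which of these transcripts differ when Arrdc4 is lost.

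Libraries held 29974501 to 41036626 counts, and 14508 genes passed the filter on low counts, all 10 members among them. Levels are given as CPM, counts scaled to a library of 1000000 after correction for library composition. The smallest count of any member was 362 (Nos3 in KO replicate 2), a counting error of 5.26%, and other members had at least 631 counts in every heart. KO replicate 2 and WT replicate 3 stood apart from the other libraries: the leading principal component took 69.7% of the variance and placed them at 35.8 and 35.1, against -29.4 and -20.6 for KO replicates 1 and 3 and 1.3 and -22.2 for WT replicates 1 and 2. In these 2 libraries short genes were high and long genes low: genes with exons of up to 1500 bp had a median of 0.26 and 0.27 on the log2 scale relative to each gene's mean over the 6 hearts, and genes over 5000 bp a median of -0.15 in each. KO replicate 1 and WT replicates 1 and 2 held 146 to 165 CPM of 4 Y-linked genes, and KO replicates 2 and 3 and WT replicate 3 held 1.11 to 2.06. Cardiomyocyte markers summed to 78700 to 94200 CPM in KO hearts and 78500 to 87600 CPM in WT hearts.

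Endothelial identity genes did not separate knockout from wild-type hearts. In edgeR's quasi-likelihood test, with adjustment over all 14508 genes, 0 of the 10 members passed an adjusted p of 0.05, and 0 had an unadjusted p under 0.05, beside 1.23% (179 genes) of all tested genes. DESeq2 and limma-voom also called 0 members. Over all tested genes 0.00689% were called, which is Arrdc4 alone. Values of the KO hearts overlapped those of the WT hearts for all 10 members, where 4.07% of all tested genes had no overlap. Of the members 6 had fold changes above 0 and 4 below, with a median log2 fold change, KO over WT, of 0.06, beside 0.01 over all tested genes. Since each value comes from a piece of whole heart, fewer endothelial cells and less RNA per endothelial cell cannot be told apart in any of these levels.

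**Figure D1:**
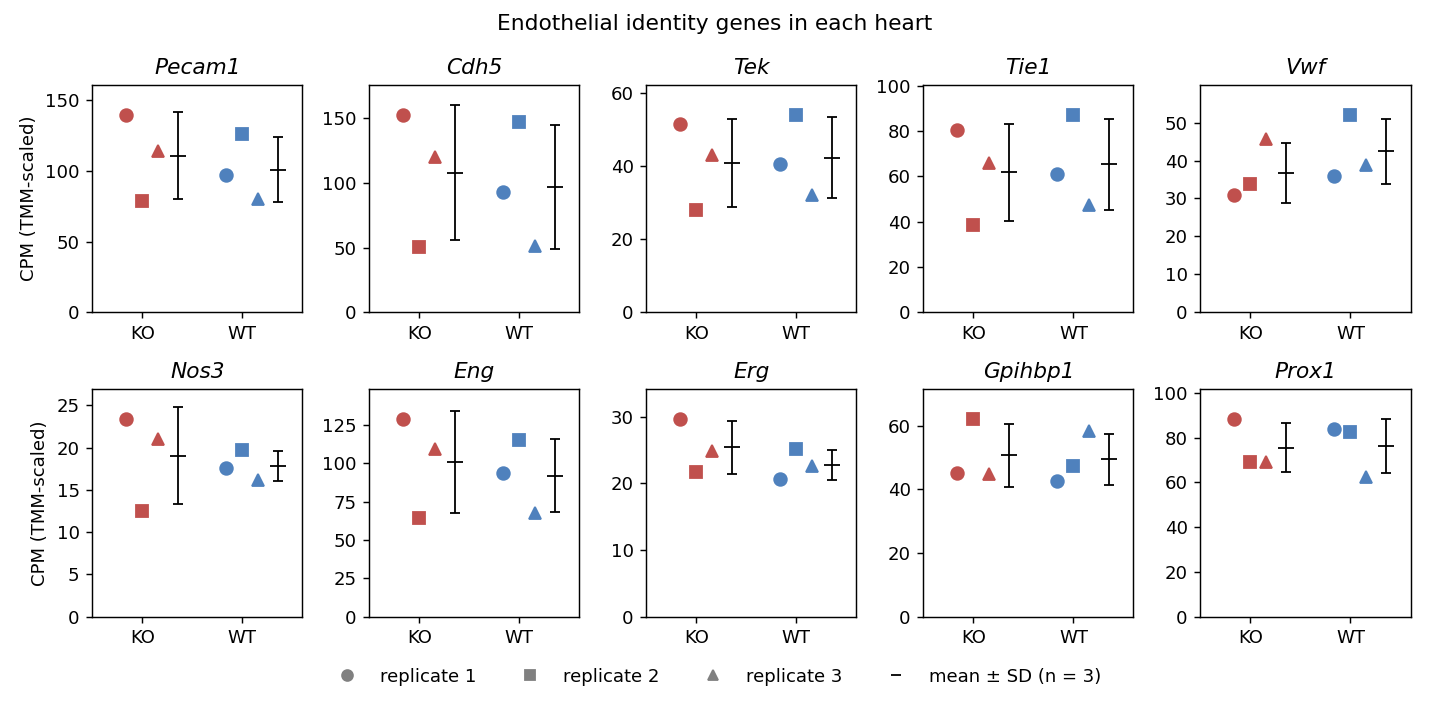
Level of each endothelial identity gene in CPM (vertical axis, from 0) in KO and WT hearts, with 1 point per heart and the mean ± SD of 3 hearts beside it. Cdh5 had the widest spread, 50.8 to 153 CPM in KO hearts and 51.6 to 147 CPM in WT hearts, and for no member do the groups part.

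Levels between genes were compared per kilobase of annotated exon, averaged over the 6 hearts (SD, n = 6). Cdh5 stood at 24.4 ± 10.8 CPM per kb and Eng at 23.8 ± 6.5, and each was above the other in 3 of 6 hearts. Gpihbp1 followed at 19.6 ± 3.20 and Pecam1 at 17.0 ± 3.98, again in either order in 3 of 6 hearts. The TIE receptors Tie1 and Tek stood at 12.9 ± 3.79 and 8.80 ± 2.19 CPM per kb, with the mean of Prox1 between them at 9.06 ± 1.25. Prox1 and Tek were each above the other in 3 of 6 hearts. Erg at 6.96 ± 0.935, Nos3 at 4.45 ± 0.930 and Vwf at 2.46 ± 0.495 CPM per kb were the lowest. Among neighbours in this order, the ranges over hearts were apart for Erg over Nos3 and overlapped for the other 8 pairs. Exon lengths are the union over annotated transcripts, 16.1 kb for Vwf with 11 transcripts and 2.55 to 8.39 kb for the others, so that a gene with long rarely used exons has its level per kb understated.

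Of the junction genes, Cdh5 varied more between hearts than any other member. Cdh5 (ENSMUSG00000031871, GRCm38 chromosome 8, 104101625 to 104144511, plus strand) encodes VE-cadherin, the adhesion molecule of endothelial junctions. It had 153, 50.8 and 120 CPM in KO replicates 1 to 3, against 92.8, 147 and 51.6 CPM in WT replicates 1 to 3. KO replicate 1 and WT replicate 2 were the highest and KO replicate 2 and WT replicate 3 the lowest, a 3.02-fold range that both genotypes spanned, and the SD within genotype was 0.79 on the log2 scale, above that of 99.0% of tested genes of like expression level. Among 20 other pan-endothelial genes the range over hearts ran from 1.33-fold (Icam2) to 3.33-fold (Kdr). The log2 fold change of Cdh5 was 0.15 (SE 0.48, 95% interval -0.96 to 1.27, adjusted p = 1 in edgeR), and it was the 1 member for which a 2-fold difference was not excluded. Pecam1 (ENSMUSG00000020717, chromosome 11, 106654217 to 106750628, minus strand) encodes PECAM-1, which endothelial cells share with platelets and many leukocytes. It had 140, 79.1 and 114 CPM in KO replicates 1 to 3, against 97.2, 126 and 80.5 CPM in WT replicates 1 to 3. The hearts stood in the same order as for Cdh5 over a range of 1.77-fold, with a log2 fold change of 0.13 (SE 0.25, 95% interval -0.46 to 0.73, adjusted p = 1 in edgeR). Macrophage markers, which mark cells that also make PECAM-1, summed to 294, 102 and 165 CPM in KO replicates 1 to 3 and to 165, 209 and 127 CPM in WT replicates 1 to 3, with all 11 detected, and their part in the Pecam1 level was not tested. Of 18 junction partners, 9 were higher and 9 lower, 0 were called in edgeR, 0 had an unadjusted p under 0.05, and the median log2 fold change was 0.00. The partners with the smallest p were Ptpn11, a phosphatase that binds PECAM-1, at -0.15 (SE 0.15), and Ccm2, at 0.12 (SE 0.12).

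The receptors Tek, Tie1 and Eng were all lowest in KO replicate 2 and WT replicate 3. Tek (ENSMUSG00000006386, chromosome 4, 94739289 to 94874976, plus strand) encodes TIE2, the receptor of the angiopoietins, and Tie1 (ENSMUSG00000033191, chromosome 4, 118471191 to 118490061, minus strand) its orphan relative and partner. Eng (ENSMUSG00000026814, chromosome 2, 32646595 to 32682669, plus strand) encodes endoglin, a co-receptor for BMP9 and BMP10 beside the ALK1 receptor. Pecam1, Cdh5 and Nos3 shared this pattern over hearts, as did 29% of all tested genes, and a relation between it and promoter motifs was not tested. For Tek, Tie1 and Eng the 300 bases around the start (250 before and 50 after, from RefSeq on GRCm38.p6) are shown. Capitals mark the motifs searched on both strands: AGGAAG and CCGGAAG, letters bound by ETS factors such as ERG, ATTGTT of SOX factors and GATAAG of GATA factors.
Eng promoter, GRCm38.p6 chr2:32646345-32646644, plus strand: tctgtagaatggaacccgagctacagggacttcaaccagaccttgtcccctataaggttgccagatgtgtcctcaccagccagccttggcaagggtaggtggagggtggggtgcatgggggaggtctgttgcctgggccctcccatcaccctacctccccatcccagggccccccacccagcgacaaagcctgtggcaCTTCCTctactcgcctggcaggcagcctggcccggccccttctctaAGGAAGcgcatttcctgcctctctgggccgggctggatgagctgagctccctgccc
Tek promoter, GRCm38.p6 chr4:94739039-94739338, plus strand: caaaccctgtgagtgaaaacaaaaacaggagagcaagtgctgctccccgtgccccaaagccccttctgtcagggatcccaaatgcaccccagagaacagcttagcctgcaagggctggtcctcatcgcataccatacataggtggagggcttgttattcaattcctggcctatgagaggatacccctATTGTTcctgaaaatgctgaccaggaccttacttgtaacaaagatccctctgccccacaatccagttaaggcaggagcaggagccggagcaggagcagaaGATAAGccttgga
Tie1 promoter, GRCm38.p6 chr4:118489800-118490099, minus strand: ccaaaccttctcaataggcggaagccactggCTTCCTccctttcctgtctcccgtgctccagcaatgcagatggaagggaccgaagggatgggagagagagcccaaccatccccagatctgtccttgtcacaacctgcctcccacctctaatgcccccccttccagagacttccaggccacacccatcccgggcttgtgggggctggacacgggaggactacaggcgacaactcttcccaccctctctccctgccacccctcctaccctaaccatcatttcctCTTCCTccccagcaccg

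Eng held AGGAAG in 2 places, ending directly before the start on the gene's strand and at -52 to -47 on the other strand. Tie1 held AGGAAG in 2 places, at -219 to -214 and at 34 to 39 after the start, both on the other strand. Tek held neither ETS sequence in this window and had ATTGTT at -63 to -58 and GATAAG at 38 to 43. None of these matches overlapped another. Of 32851 such windows over all genes, 35.4% held AGGAAG, 8.86% CCGGAAG, 10.7% ATTGTT and 7.44% GATAAG. Erg and Prox1, with 3 and 2 windows, also matched the table. In 1 window of Erg the shorter ETS motif, the SOX motif and the GATA motif each occurred once, and the other windows held no match. Pecam1, Cdh5, Vwf, Nos3 and Gpihbp1 had no window in the table.

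Tek had 51.5, 28.0 and 42.9 CPM in KO replicates 1 to 3, against 40.4, 54.0 and 32.0 CPM in WT replicates 1 to 3. Tie1 had 80.5, 38.7 and 66.0 CPM in KO replicates 1 to 3, against 60.8, 87.2 and 47.5 CPM in WT replicates 1 to 3. In both genes the hearts fell in 1 order, with WT replicate 2 and KO replicate 1 on top and WT replicate 3 and KO replicate 2 at the bottom. Their log2 fold changes were -0.05 (SE 0.27, 95% interval -0.69 to 0.59) and -0.08 (SE 0.32, 95% interval -0.82 to 0.66), each with an adjusted p of 1 in edgeR. Eng had 129, 64.2 and 109 CPM in KO replicates 1 to 3, against 93.4, 115 and 67.7 CPM in WT replicates 1 to 3, the order of hearts seen for Cdh5 and Pecam1. Its log2 fold change was 0.13 (SE 0.30, 95% interval -0.56 to 0.83, adjusted p = 1 in edgeR).

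Ligands and regulators around these receptors gave no call. On the TIE axis 7 of 8 tested genes were higher and 1 lower, with a median log2 fold change of 0.09. Angpt2, the ligand that endothelial cells release from their storage granules, stood at 2.92 ± 1.40 CPM in KO hearts and 1.89 ± 0.647 CPM in WT hearts (SD, n = 3 each; log2 fold change 0.63, SE 0.42), and Svep1 at 0.69 (SE 0.84). Angpt1, the agonist made by cells around the vessel, ran from 38.9 to 68.4 CPM in KO hearts and from 52.0 to 60.0 CPM in WT hearts. Ptprb, the phosphatase that turns TIE2 off, ran from 49.1 to 104 CPM in KO hearts and from 46.1 to 123 CPM in WT hearts, with KO replicate 2 and WT replicate 3 at the bottom. Among 15 tested genes of the ALK1 and endoglin complex 11 were higher and 4 lower, with a median of 0.07, and those with the smallest p were the ligand Bmp4 at 0.41 (SE 0.20) and the target Tmem100 at -0.40 (SE 0.22). The circulating ligands Gdf2 and Bmp10, BMP9 and BMP10, did not pass the filter on low counts. Of these 23 genes on both axes, 0 had an adjusted p under 0.05 or an unadjusted p under 0.05 in edgeR.

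Nos3 and Erg are an enzyme and a transcription factor of endothelium, and neither separated the genotypes. Nos3 (ENSMUSG00000028978, chromosome 5, 24364810 to 24384474, plus strand), the nitric oxide synthase of endothelium, had 23.4, 12.5 and 21.0 CPM in KO replicates 1 to 3, against 17.6, 19.7 and 16.2 CPM in WT replicates 1 to 3. The KO hearts spread to both sides of the WT hearts (SD 5.74 in KO and 1.76 in WT, n = 3 each), and the log2 fold change was 0.09 (SE 0.24, 95% interval -0.47 to 0.65, adjusted p = 1 in edgeR). Over 32.3% of its exon length Nos3 overlaps Atg9b and Gm15587 on the opposite strand, which had 28 to 60 and 4 to 11 counts per heart, and without a stated strand setting reads there cannot be told apart. Of 16 tested partners and targets of the enzyme 11 were higher and 5 lower, with a median of 0.09. The smallest p values belonged to the subunits of its target, soluble guanylate cyclase: Gucy1a1 stood at 14.1 ± 4.12 CPM in KO hearts and 10.1 ± 1.43 CPM in WT hearts (SD, n = 3 each; log2 fold change 0.48, SE 0.24), and Gucy1b1 at a log2 fold change of 0.24 (SE 0.16), and neither passed the test. Erg (ENSMUSG00000040732, chromosome 16, 95359169 to 95586593, minus strand) had 29.7, 21.7 and 24.9 CPM in KO replicates 1 to 3, against 20.7, 25.2 and 22.6 CPM in WT replicates 1 to 3. Apart from KO replicate 1 on top, hearts of both genotypes lay between 20.7 and 25.2 CPM. Its log2 fold change of 0.16 (SE 0.16, 95% interval -0.23 to 0.54, adjusted p = 1 in edgeR) excluded a 1.5-fold difference, as did those of Gpihbp1 and Prox1. Among 17 other tested transcription factors of endothelial cells 13 were higher and 4 lower, with a median of 0.14, led by Hhex at 0.45 (SE 0.24) and Sox18 at 0.43 (SE 0.29), which did not pass.

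Gpihbp1 was the 1 member with its highest values in KO replicate 2 and WT replicate 3. Gpihbp1 (ENSMUSG00000022579, chromosome 15, 75596628 to 75599481, plus strand) had 45.2, 62.2 and 44.7 CPM in KO replicates 1 to 3, against 42.7, 47.2 and 58.5 CPM in WT replicates 1 to 3. The hearts with the lowest Cdh5, Tek, Tie1, Eng, Pecam1 and Nos3, KO replicate 2 and WT replicate 3, were the highest for Gpihbp1. Its log2 fold change was 0.04 (SE 0.19, 95% interval -0.41 to 0.49, adjusted p = 1 in edgeR). Its cargo Lpl had 6050, 6390 and 6380 CPM in KO replicates 1 to 3, against 6320, 6970 and 6880 CPM in WT replicates 1 to 3. Cd36, a fatty acid uptake receptor of endothelium and muscle, had 1700, 2080 and 1680 CPM in KO replicates 1 to 3, against 1850, 1840 and 2320 CPM in WT replicates 1 to 3. Fabp4, a fatty acid carrier of capillary endothelium, had 379, 459 and 370 CPM in KO replicates 1 to 3, against 367, 388 and 472 CPM in WT replicates 1 to 3. For Cd36 and Fabp4, as for Gpihbp1, KO replicate 2 and WT replicate 3 were the top hearts, and Lpl did not share this order. In all, 4 of the 13 tested lipolysis partners had these as their top hearts, beside 29.4% of all tested genes, and 3 had them as their lowest. Of 13 tested lipolysis partners 5 were higher and 8 lower, with a median log2 fold change of -0.02, and 0 were called or had an unadjusted p under 0.05 in edgeR; those with the smallest p were Tcf15 at 0.16 (SE 0.13) and Slc27a3 at 0.36 (SE 0.34). Meox2 and Tcf15, factors known in mouse heart endothelium to drive Gpihbp1 and fatty acid uptake, had 10.9 to 17.3 and 13.2 to 15 CPM in KO hearts, against 9.97 to 15.2 and 11.8 to 13.2 CPM in WT hearts.

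Vwf and Prox1 followed neither pattern. Vwf (ENSMUSG00000001930, chromosome 6, 125546774 to 125686679, plus strand) had 31.0, 33.7 and 45.8 CPM in KO replicates 1 to 3, against 36, 52.1 and 38.9 CPM in WT replicates 1 to 3. KO replicate 1, the top heart for 6 members, was the lowest for Vwf. Its log2 fold change of -0.20 (SE 0.21, 95% interval -0.70 to 0.29, adjusted p = 1 in edgeR) was the farthest from 0 of the 10 members. Platelets also hold Vwf: of 10 platelet markers 6 passed the filter, and these summed to 20.9, 12.0 and 13.7 CPM in KO replicates 1 to 3 and to 13.1, 13.8 and 16.8 CPM in WT replicates 1 to 3, with KO replicate 1 highest. Pf4 alone gave 14.4 CPM of the sum in KO replicate 1. Pf4 and Itgb3 were highest in KO replicate 1, and Gp1ba in KO replicate 3. Ppbp, Itga2b and Gp1bb were highest in WT replicate 2, the top heart for Vwf. Relative to each gene's mean, the markers averaged 0.18 on the log2 scale in both KO replicate 1 and WT replicate 2. The part of platelets in the Vwf level was not tested. Among 13 tested coagulation and storage granule genes 9 were higher and 4 lower, with a median of 0.18, led by the plasminogen activator Plat at 0.45 (SE 0.24) and by Clec14a at 0.29 (SE 0.19), and 0 passed the test or had an unadjusted p under 0.05 in edgeR. Prox1 (ENSMUSG00000010175, chromosome 1, 190118035 to 190170714, minus strand) had 88.5, 69.2 and 69.2 CPM in KO replicates 1 to 3, against 84.1, 82.8 and 62.3 CPM in WT replicates 1 to 3. Its range of 1.42-fold was the narrowest of the members, with a log2 fold change of -0.02 (SE 0.18, 95% interval -0.43 to 0.40, adjusted p = 1 in edgeR). Per kilobase, tested lymphatic genes stood at 0.0994 (Reln) to 8.18 (Itga9) CPM, where Prox1 stood at 9.06: Lyve1 stood at 3.21 and Flt4, the VEGF-C receptor, at 1.33 CPM per kb, and Ccl21a had 0 counts in all 6 hearts. Over hearts Flt4 ranged by 2.97-fold and Lyve1 by 2.36-fold, and the tested genes of the list by 1.28-fold (Adamts3) to 4.74-fold (Mmrn1). Of 14 tested lymphatic genes 11 were higher and 3 lower, with a median of 0.22, led by Sema3d at 1 (SE 0.46) and Pdpn at 0.52 (SE 0.24), and 0 were called or had an unadjusted p under 0.05 in edgeR.

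**Figure D2:**
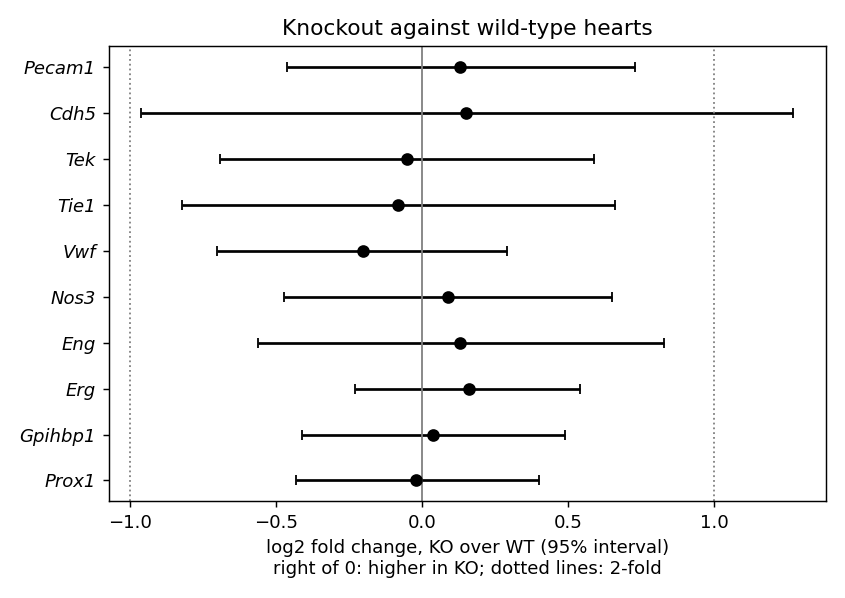
Log2 fold change of each member, KO over WT, with its 95% interval from edgeR (horizontal axis). Every interval spans 0, and that of Cdh5, -0.96 to 1.27, reaches past the dotted line of a 2-fold difference.

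The signs of these fold changes rested on individual hearts. For 9 of 10 members the 95% interval held no 2-fold difference, beside 76.5% of all tested genes. Without KO replicate 1 the log2 fold changes of Pecam1, Cdh5, Nos3 and Eng were -0.07, -0.18, -0.09 and -0.09. Without KO replicate 2 those of Tek, Tie1 and Prox1 were 0.16, 0.17 and 0.04 and that of Gpihbp1 was -0.14. Leaving out WT replicate 3 gave Pecam1, Cdh5 and Eng values of -0.01, -0.15 and -0.05, and leaving out WT replicate 2 gave Tek, Tie1 and Prox1 values of 0.17, 0.18 and 0.04. Prox1 was also above 0 without KO replicate 3 (0.04) or WT replicate 1 (0.06), and Gpihbp1 below 0 without WT replicate 1 (-0.06). With KO replicate 2 and WT replicate 3 both left out, the SE of Cdh5 was 0.23 in place of 0.48 and its log2 fold change 0.18, and no member had an adjusted p below 0.787 in edgeR. Erg stayed above 0 and Vwf below 0 in each of 17 other fits. With a term for hearts with Y-linked reads the log2 fold change of Cdh5 was 0.54, and no member had an adjusted p below 0.854.

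The spread between hearts had a shared shape. KO replicate 2 and WT replicate 3 were the lowest hearts for 6 of 10 members, Pecam1, Cdh5, Tek, Tie1, Nos3 and Eng, and for 13 of 20 other pan-endothelial genes, where 29% of all tested genes had this order. They were the highest hearts for Gpihbp1 and for 2 of the 20 other pan-endothelial genes, Egfl7 and Ecscr, where 29.4% of all tested genes had that order. Genes lowest in both hearts had a median exon length of 6.33 kb over the whole table and of 6.48 kb in the pan-endothelial list, and genes highest in both hearts 2.92 kb and 2.67 kb. Members of the low kind had a median of 4.46 kb, near the 4.26 kb of all tested genes, and Gpihbp1 has 2.55 kb. Against tested genes in the same classes of length and GC content, Cdh5 stood at -0.87 in KO replicate 2 and -0.85 in WT replicate 3, where the like genes had a median of -0.05 in each. Tek stood at -0.52 and -0.33 in these hearts, where its like genes had a median of 0.05. Eng stood at -0.54 and -0.46, where its like genes had medians of -0.14 and -0.15. Gpihbp1 stood at 0.33 and 0.24, where its like genes had medians of 0.14 and 0.13. Pecam1 and Tie1 also lay below their like genes in both hearts. Erg lay slightly below, at -0.14 and -0.08, where its like genes had a median of -0.05 in each. Nos3 stood at -0.52 in KO replicate 2, where its like genes had -0.14, and at -0.15 in WT replicate 3, as they did. Prox1 stood at -0.12 in KO replicate 2 and its like genes at -0.15, and at -0.27 in WT replicate 3, where they had -0.16. Vwf lay above its like genes, at -0.21 and 0 in these hearts against -0.28 and -0.30. How much of the rest is RNA quality or cell content was not tested.

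**Figure D3:**
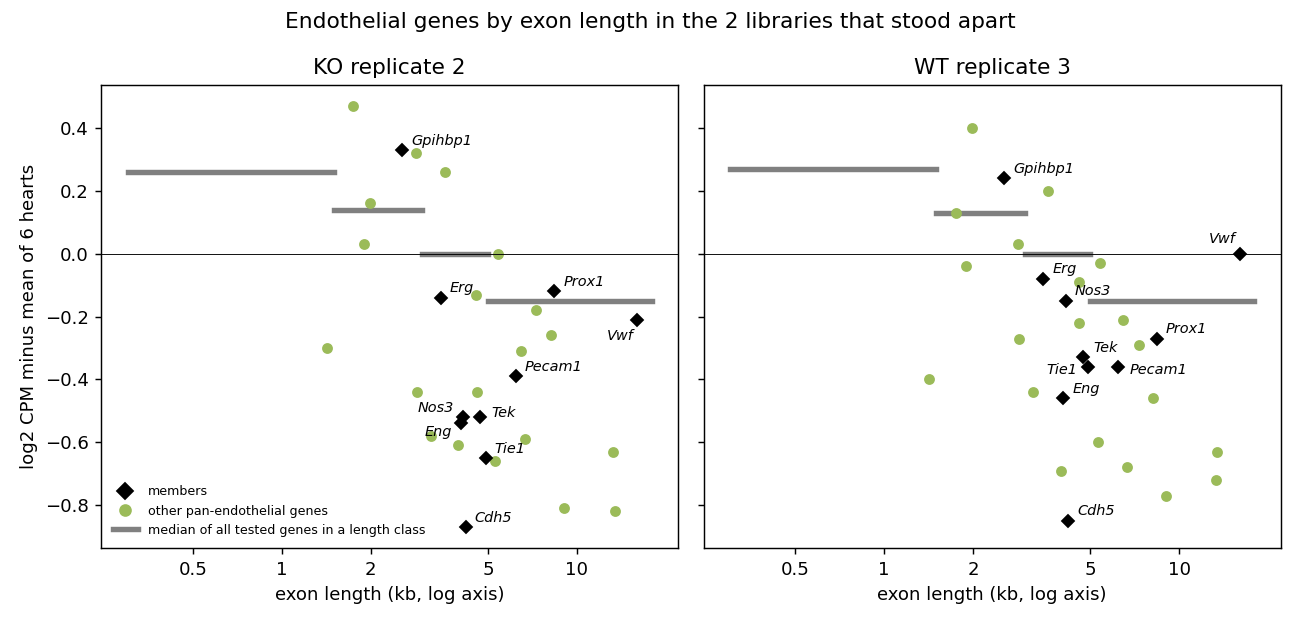
Deviation of endothelial genes from their mean over 6 hearts (vertical axis, log2 CPM) against exon length (horizontal log axis, kb) in KO replicate 2 and WT replicate 3. Diamonds are members, green points the 20 other pan-endothelial genes, and grey bars the median of all tested genes of a length class; Cdh5 lies at -0.87 and -0.85 and Gpihbp1 at 0.33 and 0.24.

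Markers of other cell types also varied between hearts. Relative to each gene's mean over the 6 hearts, other pan-endothelial genes averaged 0.36, -0.28 and 0.07 on the log2 scale in KO replicates 1 to 3, against -0.03, 0.16 and -0.29 in WT replicates 1 to 3. Fibroblast markers averaged 0.57, -0.59 and 0.42 in KO replicates 1 to 3, against -0.18, 0.12 and -0.34 in WT replicates 1 to 3, and pericyte and smooth muscle markers 0.49, -0.45 and 0.38, against -0.18, 0.08 and -0.31. These are means over lists: KO replicate 2 and WT replicate 3 were the lowest hearts for 5 of 10 fibroblast markers and 5 of 10 pericyte and smooth muscle markers. Cardiomyocyte markers went both ways, with 4 of 11 lowest in these hearts (median exon length 17.8 kb) and 6 of 11 highest (2.41 kb). Myh6, the main heart myosin, stood at -0.93 in KO replicate 2 and -0.80 in WT replicate 3, the giant sarcomere gene Ttn at -0.84 and -0.93, and the myosin light chain Myl2 at 0.61 and 0.60. The cardiomyocyte mean, -0.09 to 0.13 over the hearts, therefore does not show whether muscle content was stable. Among fibroblast markers 0 of 10 were called in edgeR and 2 had an unadjusted p under 0.05, beside 1.23% of all tested genes. These were Lum at a log2 fold change of 0.75 (SE 0.24) and Smoc2 at 0.56 (SE 0.21). Summed over the whole list, fibroblast markers held 899 to 1810 CPM in KO hearts and 1160 to 1610 CPM in WT hearts, and pericyte and smooth muscle markers 997 to 1240 CPM in KO hearts and 1080 to 1120 CPM in WT hearts, each with 10 of 10 markers tested. Epicardial markers, all 10 higher with a median log2 fold change of 1.25 and 0 called in edgeR, summed to 41.8, 8.41 and 23.8 CPM in KO replicates 1 to 3, against 16.4, 10.9 and 9.76 CPM in WT replicates 1 to 3. Red cell transcripts summed to 453 to 800 CPM in KO hearts and 525 to 759 CPM in WT hearts. Of 7 adipocyte markers 1 passed the filter, Adig, at a low level of 0.63 ± 0.0921 CPM in KO hearts and 1.04 ± 0.0777 CPM in WT hearts (SD, n = 3 each). Its log2 fold change was -0.72 (SE 0.26), with an unadjusted p of 0.0261 in edgeR. The part of these cell types in the members' levels was not tested.

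**Figure D4:**
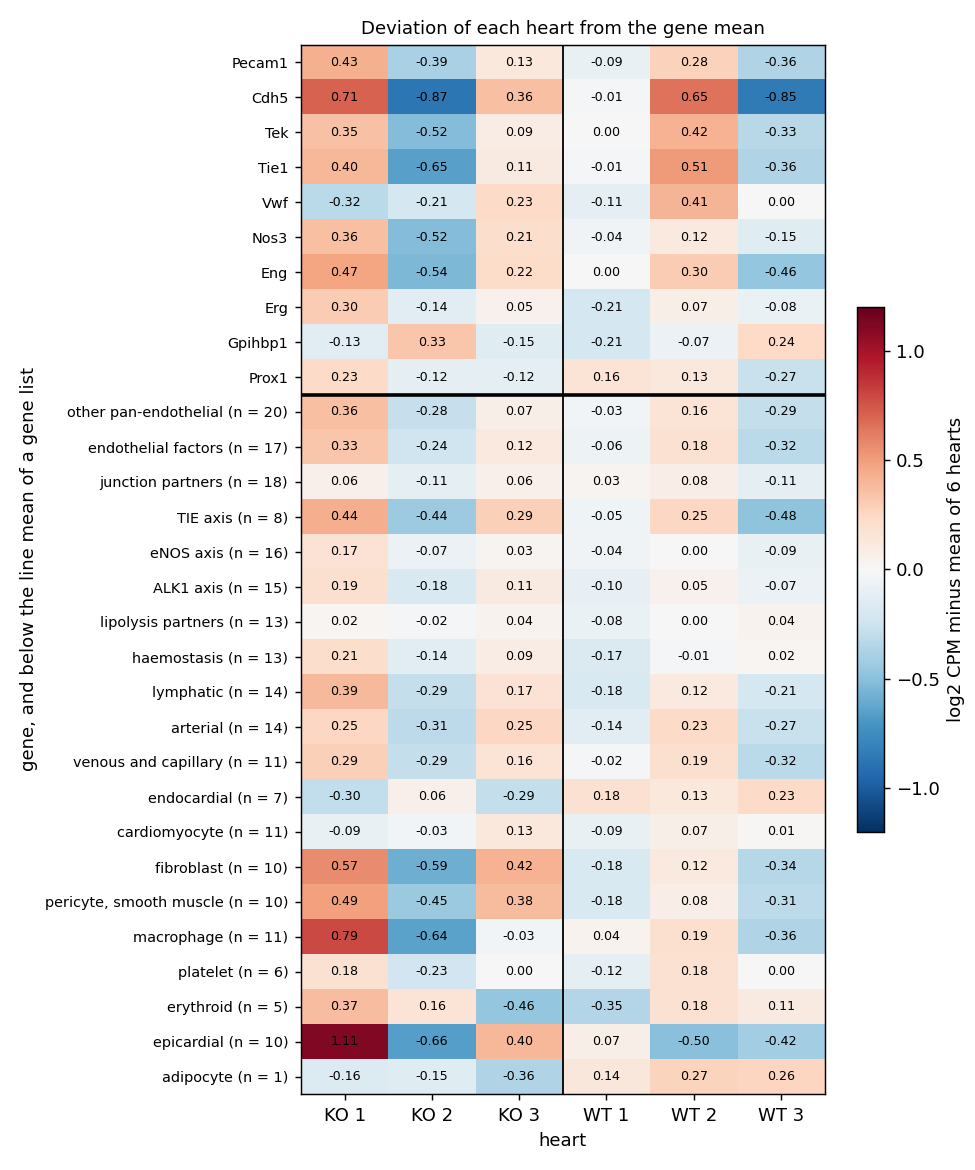
Log2 CPM of each heart minus the mean of the 6 hearts (colour and printed value) for the 10 members above the line and, below it, the mean over the tested genes of each gene list, with KO hearts left of WT hearts. KO replicate 2 and WT replicate 3 are blue for most endothelial rows and red for Gpihbp1, and the cardiomyocyte row, a mean over markers that go both ways, lies between -0.09 and 0.13.

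Set against other endothelial transcripts of the same heart, most members lay closer together. Each member's level was divided by the geometric mean of the 20 other pan-endothelial genes. The SD of Pecam1 over the 6 hearts was then 0.09 on the log2 scale in place of 0.34, that of Eng 0.17 in place of 0.41, that of Tek 0.16 in place of 0.37 and that of Nos3 0.14 in place of 0.31. Of the 10 members Pecam1 had the smallest SD after this division. The 20 reference genes were themselves low in KO replicate 2 and WT replicate 3, at a mean of -0.28 and -0.29. Division by them can therefore also narrow the spread of genes outside endothelium that are low in these libraries. The same SD was not computed for genes outside the members. For Gpihbp1 and Vwf the SD was larger after this division, 0.45 in place of 0.22 and 0.36 in place of 0.28. Gpihbp1 stood 0.60 above its mean in KO replicate 2 and 0.52 above in WT replicate 3, and Cdh5 stood at -0.59 and -0.56 in the same hearts. Vwf stood at -0.69 in KO replicate 1 and between -0.08 and 0.29 in the other 5 hearts. Between genotypes the log2 differences, KO minus WT, ran from -0.31 (Vwf) to 0.04 (Erg), with exact two-sided permutation p values of 0.4 to 1 and an adjusted p of 1 for all 10 members, where 0.1 is the smallest p that 3 hearts against 3 allow. Leaving out KO replicate 1 gave Vwf a difference of -0.04 and leaving out KO replicate 3 gave -0.46.

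**Figure D5:**
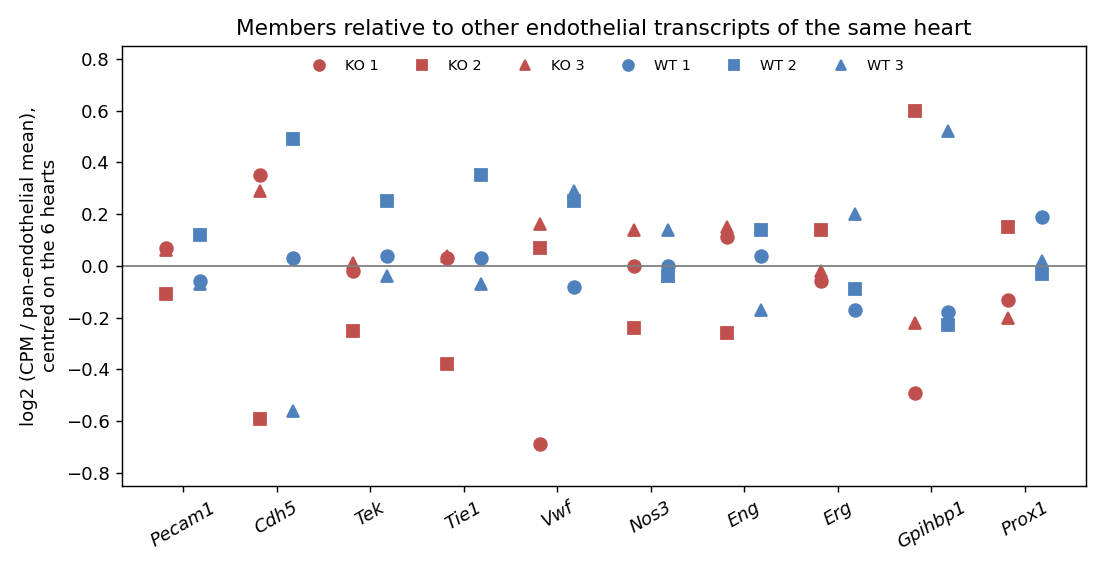
Log2 ratio of each member to the geometric mean of the 20 other pan-endothelial genes in the same heart, centred on the mean of the 6 hearts (vertical axis), with KO hearts left of WT hearts for each gene. Pecam1 is tightly grouped, Cdh5 and Gpihbp1 part KO replicate 2 and WT replicate 3 from the other hearts in opposite directions, and Vwf is low in KO replicate 1.

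Vessel subtypes were covered by separate lists. Of 14 tested arterial markers 12 were higher and 2 lower, with a median log2 fold change of 0.19, and those with the smallest p were the connexin Gja4 at 0.17 (SE 0.16) and the NOTCH target Hey1 at 0.23 (SE 0.21). Of 11 tested venous and capillary markers 8 were higher and 3 lower, with a median of 0.05, led by the adhesion receptor Vcam1 at 0.44 (SE 0.27) and the capillary enzyme Car4 at -0.24 (SE 0.16). Among the 20 other pan-endothelial genes 17 were higher and 3 lower, with a median of 0.13, led by Plvap at -0.41 (SE 0.24) and Cd34 at 0.32 (SE 0.20). None of these 45 genes had an adjusted or unadjusted p under 0.05 in edgeR. By comparison 52.3% of all tested genes had a log2 fold change above 0. Genes within these lists are not independent of each other. KO replicate 2 and WT replicate 3 were the lowest hearts for 13 of the 20 pan-endothelial and 8 of the 14 arterial genes, beside 29% of all tested genes. The counts of higher and lower genes are therefore description only.

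The genes whose pattern over the 6 hearts was most like the mean of the 10 members were looked for outside the members and gene lists. Among 9114 such candidates with a mean of at least 5 CPM, these were Tbc1d9b, Cblb, Nfatc3, Glmp and Sdad1, with root mean square differences of 0.027 to 0.035 on the log2 scale over 6 hearts. The members themselves differed from their own mean by 0.077 (Pecam1) to 0.43 (Gpihbp1). They were not picked by this difference, as the genes named above were, so the ranges cannot be compared. Tbc1d9b stood at 0.24, -0.37 and 0.16 in KO replicates 1 to 3, against -0.06, 0.28 and -0.25 in WT replicates 1 to 3, where the members averaged 0.28, -0.36 and 0.11, against -0.05, 0.28 and -0.26. All share the libraries and their depth.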

How the data were processed

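RNA of 6 mouse hearts, 3 KO and 3 WT, was sequenced; per the labels' protocols it was isolated on Qiagen columns and made into libraries with a NEBNext kit. The authors deposited 1 table of raw read counts per gene. The submitters' processing notes list STAR, featureCounts, Subread 1.5.2, DESeq2 and GRCm38.p6 but no roles. Strand setting, annotation release and handling of multi-mapping reads: not given in the sources used here. Groups, replicate numbers and columns were taken from sample titles. Of 49315 identifiers 48970 matched a symbol; the other 345 took 0.0147% to 0.0173% of counts.

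Low counts were removed with filterByExpr (10 per gene, 15 in total), libraries scaled by TMM, and KO tested against WT with the quasi-likelihood test of edgeR 4.0.16 in R 4.3.3, adjusted by Benjamini-Hochberg over 14508 genes at 0.05. CPM are counts over TMM-scaled library sizes; log2 levels use a pseudocount of 0.5 CPM. DESeq2 1.42.0 and limma 3.58.1 were alternatives. GENCODE M21 on GRCm38 gave positions, exon lengths and GC content for 99.8% of tested genes, and RefSeq gave promoters. KO replicate 2 and WT replicate 3, the closest libraries, still differed beyond sampling noise (chi-square over its degrees of freedom 7.31; other pairs 24.7 or more). The labels do not say that hearts came from separate litters, and p-values measure the spread between these samples.

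The members and gene lists were chosen with earlier results of these data known. All members are named; of each endothelial list the text names the genes with an adjusted p under 0.05, or else the 2 with the smallest p, and of lists of other cell types those with an unadjusted p under 0.05. Other genes (Angpt1, Ptprb, Lpl, Cd36, Fabp4, Meox2, Lyve1, Flt4, Reln, Ccl21a, Egfl7, Ecscr, Kdr, Icam2, Nfatc1, Cytl1, Cgnl1, Itga9, Adamts3, Mmrn1, Myh6, Ttn, Myl2, Pf4, Itgb3, Gp1ba, Ppbp, Itga2b, Gp1bb) were named after their values were seen. Summed marker levels cover the markers that passed the filter. Intervals cover the spread between these hearts, and counting errors cover counting alone.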

Additional observations from a re-analysis of the deposited data

How the results depend on the processing

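No member was called under any of the 17 other ways to fit the counts. Over all genes 1 was called in most of them, 2 with KO replicate 2 and WT replicate 3 both left out, 0 with a replicate block and 0 to 1 when each library was left out in turn. Whether the replicate numbers pair the hearts could not be told. Deviations of same-numbered hearts from their group means correlated at 0.22, -0.74 and -0.5 over genes, and not every heart correlated best with its own number. Such deviations sum to 0 within a group, and KO replicate 2 and WT replicate 3, which stood apart, correlated at 0.77. The correlations therefore do not decide whether hearts were paired. The median log2 fold change of the members was 0.04 with the block and -0.1 to 0.21 when each library was left out. Left out in turn, libraries gave ranges of -0.07 to 0.32 for Pecam1, -0.18 to 0.58 for Cdh5, -0.25 to 0.17 for Tek, -0.32 to 0.18 for Tie1, -0.39 to -0.03 for Vwf, -0.09 to 0.31 for Nos3, -0.09 to 0.37 for Eng, 0.03 to 0.26 for Erg, -0.14 to 0.17 for Gpihbp1 and -0.14 to 0.06 for Prox1. Signs also turned with a term for Y-linked reads (Tek 0.14, Tie1 0.13, Gpihbp1 -0.06, Prox1 0.12), with scaling to the pan-endothelial list (Nos3 -0.06, Gpihbp1 -0.04), where the median of all genes was -0.09, and without KO replicate 2 and WT replicate 3 (Gpihbp1 -0.01). An offset for length and GC content, added after the data were seen, turned no sign. Per unit of endothelial signal, signs turned with 4 reference genes (Pecam1 -0.03, Cdh5 -0.01) and without KO replicate 2 and WT replicate 3 (Nos3 0.09, Eng 0.04), and the ranges without each library, also added after the data were seen, were -0.02 to 0.07 for Pecam1, -0.24 to 0.33 for Cdh5, -0.15 to 0.04 for Nos3, -0.09 to 0.13 for Eng, -0.04 to 0.15 for Erg and -0.39 to 0.17 for Gpihbp1. The cause of these changes was not tested. With 3 hearts a genotype, the main edgeR fit excluded a 1.5-fold difference for 3 of 10 members, Erg, Gpihbp1 and Prox1. The share of all tested genes for which it was excluded was not computed. The SE of Erg was 0.16 in the main fit and 0.23 with the replicate block, and intervals of the other fits are not given here.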

Other observations

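Endocardial markers, which mark the endothelium lining the chambers, were described apart from the vessel lists. Of 9 such genes 7 passed the filter. Of these, 1 was higher and 6 were lower in KO hearts, where 52.3% of all tested genes had a log2 fold change above 0. The higher gene was Nfatc1, at 0.15 (SE 0.28), and the median log2 fold change was -0.49. In edgeR 0 were called and 1, Npr3, had an unadjusted p under 0.05 (0.008), beside 1.23% of all tested genes. The 7 tested markers summed to 70.9, 75.6 and 73.7 CPM in KO replicates 1 to 3, against 81.6, 86.2 and 85.7 CPM in WT replicates 1 to 3, so that the groups did not overlap. Of single tested genes 4.07% had no overlap, and the share for sums of genes was not computed. Cgnl1, for which the groups overlapped, gave 33.6 to 37.3 CPM of the sum in KO hearts and 35.5 to 41.6 CPM in WT hearts. This list, like the others, was chosen with earlier results of these data known. Npr3, the natriuretic peptide clearance receptor, had 13.3, 13.0 and 13.2 CPM in KO replicates 1 to 3, against 18.3, 16.8 and 20.4 CPM in WT replicates 1 to 3 (log2 fold change -0.49, SE 0.14, adjusted p = 1 in edgeR). Smoc1 had 2.68, 4.10 and 2.70 CPM in KO replicates 1 to 3, against 5.19, 4.21 and 4.27 CPM in WT replicates 1 to 3 (log2 fold change -0.53, SE 0.23, adjusted p = 1 in edgeR). Cytl1 had 9.96 CPM in KO replicate 2 and 11.7 CPM in WT replicate 3, and between 2.40 and 4.62 CPM in the other 4 hearts, so that its top hearts were those of Gpihbp1.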
